A study of Mus musculus with 22 samples.

Results

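The hypothalamus of mice labelled interleukin-6 (IL-6) deficient and wild type was examined after lipopolysaccharide (LPS) or saline. Followed here were 10 genes that take part in the display of peptides on MHC class I molecules or in its regulation. They were taken by gene symbol from the annotation of the array: the immunoproteasome subunits Psmb8, Psmb9 and Psmb10, the proteasome activator subunits Psme1 and Psme2, the peptide transporter subunits Tap1 and Tap2, the loading chaperone Tapbp, the class I light chain B2m and the transcriptional regulator Nlrc5. All 10 were measured, among 19935 genes in all. Each was read by 1 probe set that lists a single symbol, except Nlrc5, which had 19.

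The animals were male C57bl6 mice aged 9 to 12 weeks. The IL-6 KO mice and their wild-type (WT) littermates came from the same parents. Each mouse had a single intraperitoneal injection, either saline or 120 µg/kg of LPS from E. coli, a bacterial cell wall component that sets off inflammation and fever, and was killed 3 h later after perfusion with saline. There were 7 KO arrays after LPS, 7 WT arrays after LPS, 4 KO arrays after saline and 4 WT arrays after saline. Nothing in the labels states that the arrays are of separate mice. The p-values then cover only the spread between these arrays, which may be technical. The design text asks whether expression differences under LPS might account for the absent fever of mice without IL-6. In whole tissue, fewer cells of a type and less RNA per cell cannot be told apart.

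Values are log2 differences from the median of the 22 arrays, computed for each probe set by the authors. They hold no level of a gene, so the genes cannot be ranked by abundance and the tissue's markers cannot be checked as levels. Il6 did not separate the genotypes: in KO arrays after LPS its values ran from -0.0059 to 0.61, against -0.10 to 0.28 in WT arrays after LPS. The LPS effect on the Il6 probe set was 0.36 ± 0.082 in KO (SE; limma adjusted p = 0.0193) and 0.21 ± 0.082 in WT (limma adjusted p = 0.457). How Il6 was altered is not given, so this probe set does not check the labels, and KO below means arrays so labelled. The array titles carry running numbers, and arrays 12 to 22 differed from arrays 1 to 11 at 4286 of 19935 genes (21.5%) in a fit with the groups. The earlier block holds 2 of the KO LPS, 5 of the WT LPS, 1 of the KO saline and 3 of the WT saline arrays. Pituitary markers were high in KO LPS replicate 3 and KO saline replicate 2, and choroid plexus markers in WT LPS replicate 5 and WT saline replicate 1. Without these 4 arrays, 4 members were called for LPS in KO and 3 in WT.

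Cells cut their own proteins with the proteasome, a barrel-shaped protease. Under interferon and other inflammatory signals, 3 of its catalytic subunits are replaced by Psmb8, Psmb9 and Psmb10, which favours peptides that fit MHC class I. The activator formed by Psme1 and Psme2 opens the barrel, Tap1 and Tap2 carry the peptides into the endoplasmic reticulum, Tapbp holds the transporter against the waiting class I molecule, and B2m is the light chain of that molecule. Nlrc5 acts in the nucleus as a coactivator of class I genes.

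Psmb9 and Tap1 are neighbours that are transcribed away from each other, with Psmb8 and Tap2 beside them on chromosome 17. Shown here are the stretch between the Psmb9 and Tap1 starts, which lies upstream of 2 genes called in KO, and the windows before Psmb8 and B2m, which hold motifs of STAT, interferon or NF-kB signalling. The sequences are from RefSeq, build GRCm38.p6, plus strand, and run 5′ to 3′. Capitals mark motif matches.
Psmb9 to Tap1, chr17:34187331-34187555: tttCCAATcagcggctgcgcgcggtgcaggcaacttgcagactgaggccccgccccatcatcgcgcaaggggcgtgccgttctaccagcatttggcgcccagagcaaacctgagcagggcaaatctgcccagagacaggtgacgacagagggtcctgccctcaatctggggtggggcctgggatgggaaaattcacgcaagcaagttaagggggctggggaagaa
Psmb8, chr17:34197945-34198194: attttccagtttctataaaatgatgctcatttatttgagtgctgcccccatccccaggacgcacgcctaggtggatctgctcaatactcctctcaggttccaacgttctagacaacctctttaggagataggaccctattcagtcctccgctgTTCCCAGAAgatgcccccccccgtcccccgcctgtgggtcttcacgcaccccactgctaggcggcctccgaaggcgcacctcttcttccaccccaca
B2m, chr2:122147437-122147686: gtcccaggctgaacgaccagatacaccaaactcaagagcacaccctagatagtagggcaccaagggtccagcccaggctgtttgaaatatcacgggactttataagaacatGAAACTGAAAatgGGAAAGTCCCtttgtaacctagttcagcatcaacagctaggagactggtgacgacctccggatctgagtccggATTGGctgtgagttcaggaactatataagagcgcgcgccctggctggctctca

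RefSeq's promoter table held 8 of the 10 genes, Tap2 and Nlrc5 being the others. The 250 bases before each start were searched on both strands. The Psmb9 to Tap1 stretch, of 225 bases, holds CCAAT, the pattern that NF-Y binds. CCAAT occurs in 33.8% of 32851 promoter windows of 250 bases. The Psmb8 window holds TTCNNNGAA, the pattern of STAT dimers, present in 7.02% of the promoters. The B2m window holds 3 matches: the interferon motif, which is 2 copies of GAAA separated by any 2 bases and is found in 2.98% of promoters, an NF-kB motif found in 1.41%, and CCAAT on the minus strand. Tapbp holds CCAAT at 2 places, and Psmb10, Psme1 and Psme2 hold none of these 4 patterns. A match is only a run of letters, and shows no binding.

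LPS raised Tap1, Tap2 and Nlrc5 in both genotypes, and Psmb9 in KO. Called here means a limma adjusted p under 0.05 over all genes. In KO, 4 of the 10 members were called higher, against 1.08% of all genes, and in WT 3 of 10, against 1.42%. No member was called lower, against 0.256% of all genes in KO and 0.376% in WT. The median difference of the 10 was 0.259 in KO and 0.232 in WT, where that of all genes was -0.0089 and -0.0113. The KO LPS and KO saline arrays did not overlap for the same 4 genes, with 1.21% of all genes wholly higher after LPS. The WT LPS and WT saline arrays did not overlap for the same 3 genes, with 1.63% of all genes wholly higher. The plot of values by array shows the separation.

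**Figure D1:**
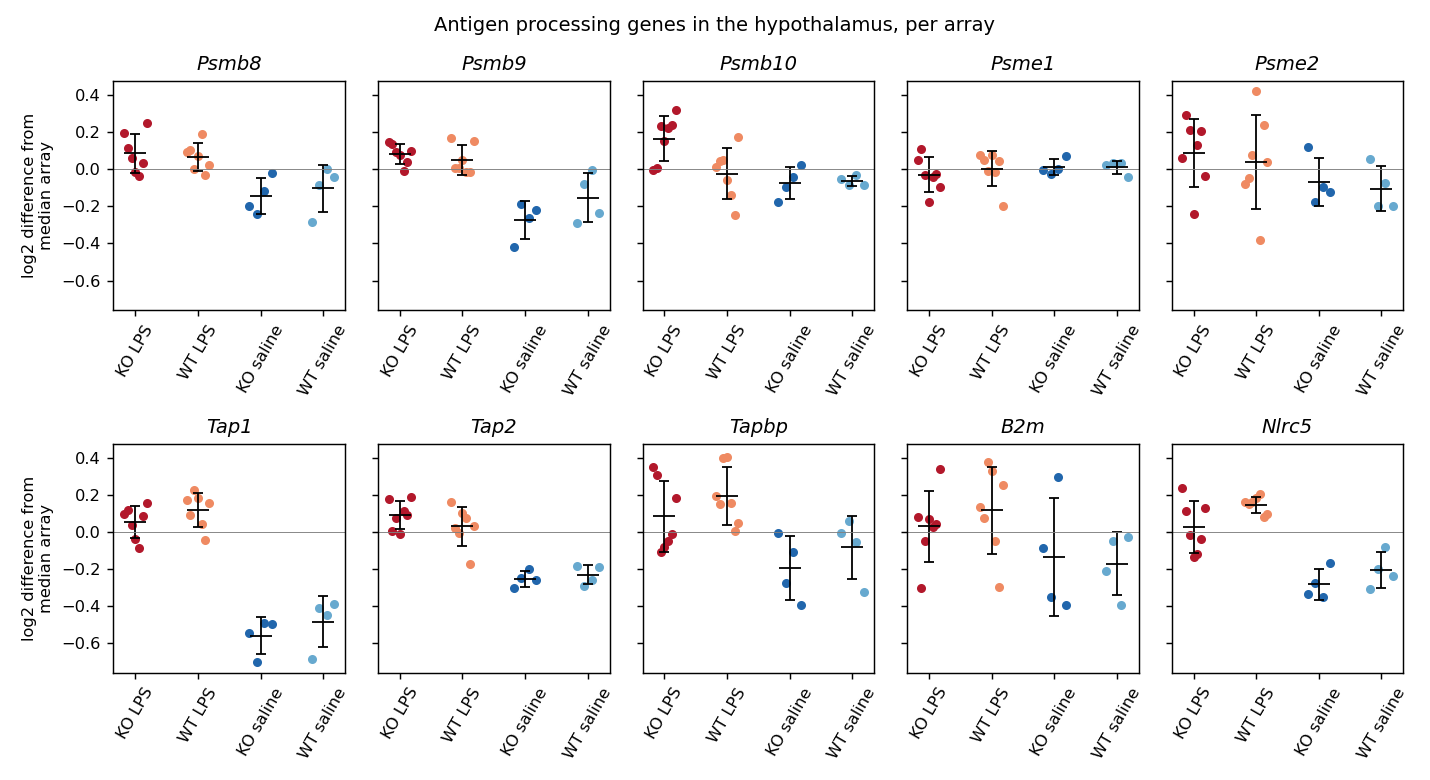
Each panel shows a gene and each point an array, as the log2 difference from the median array. The long line is the group mean and the whiskers its SD (n = 7, 7, 4 and 4). For Tap1, the lowest array after LPS lies at -0.08 and the highest after saline at -0.39.

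Among the immunoproteasome subunits, Psmb9 (beta 1i) rose in KO. Its KO LPS arrays had a lowest value of -0.01, a median of 0.09 and a highest of 0.15. The KO saline arrays were at -0.42, -0.19, -0.26 and -0.22. All KO LPS arrays were above all KO saline arrays, and the difference of 0.36 ± 0.056 (SE; 1.28-fold) was called, with a limma adjusted p of 0.000306. In WT, LPS arrays ran from -0.02 to 0.17 with a median of 0.0074, and saline arrays were at -0.29, -0.08, -0.0069 and -0.24. Here the groups overlapped, and the difference of 0.20 ± 0.056 missed the threshold at a limma adjusted p of 0.0677. It was called without WT saline replicate 3, at 0.25 (adjusted p = 0.0179), and without KO saline replicate 1 (0.0434). It was also called with array weights, a limma option that gives noisy arrays less weight (0.0434), with arrays centred on their own medians (0.0376) and with quantile normalization (0.0231).

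Psmb8 (beta 5i) had a lowest value of -0.04, a median of 0.06 and a highest of 0.25 in KO LPS arrays. The KO saline arrays were at -0.20, -0.24, -0.12 and -0.02, and 6 of the 7 LPS arrays lay above the highest of these. The difference in KO was 0.23 ± 0.061 (SE; limma adjusted p = 0.0705) and in WT it was 0.17 ± 0.061 (limma adjusted p = 0.366), neither called. It was called in KO at an adjusted p of 0.0382 without WT saline replicate 1, 0.0424 without KO LPS replicate 5 and 0.0388 without KO saline replicate 4. Array weights (0.0328), centring on array medians (0.0422) and quantile normalization (0.0391) also gave the call.

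The KO LPS values of Psmb10 (beta 2i) fell apart by array number. The KO LPS arrays were at -0.0039 and 0.0039 in arrays 1 to 11, and between 0.15 and 0.32 in arrays 12 to 22. WT LPS arrays ran from -0.25 to 0.17 with a median of 0.01. The KO saline arrays ran from -0.18 to 0.02, and the WT saline arrays from -0.09 to -0.03. The LPS difference was 0.24 ± 0.068 in KO (SE; limma adjusted p = 0.108) and 0.04 ± 0.068 in WT (limma adjusted p = 0.99967). Neither was called, though without KO LPS replicate 1 the KO difference was called (adjusted p = 0.0450), as it was with array weights (0.0176).

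Each of these subunits takes the place of a constitutive one, Psmb8 that of Psmb5, Psmb9 that of Psmb6 and Psmb10 that of Psmb7. The log2 ratio of each pair within an array was compared between LPS and saline by exact permutation (330 regroupings, two-sided, 6 tests), a test added after the values were seen. The Psmb9 to Psmb6 ratio was higher after LPS by 0.38 in KO and by 0.28 in WT (exact adjusted p = 0.00909 each). The Psmb8 to Psmb5 ratio was higher by 0.21 in KO (exact adjusted p = 0.00909) and by 0.24 in WT (exact adjusted p = 0.0145). The Psmb10 to Psmb7 ratio was higher by 0.29 in KO (exact adjusted p = 0.00909) and by 0.11 in WT (exact adjusted p = 0.0848). The smallest unadjusted p here is 0.00606. The WT value for Psmb10 passed without WT LPS replicate 6, at 0.138 (exact unadjusted p = 0.0190). A ratio shows unequal change of the pair and not which of them moved. None of the constitutive subunits was called in either LPS effect, their differences lying between -0.08 and 0.02. Psmb5 was called between the genotypes after LPS, higher in KO by 0.28 ± 0.046 (SE; limma adjusted p = 0.0164), a call lost in 9 of 33 alternatives, among them the block term (0.0722) and the omission of WT LPS replicate 3 (0.0570), KO LPS replicate 3 (0.0509) or KO LPS replicate 6 (0.0624). After saline, Psmb5 averaged 0.11 in KO and -0.08 in WT arrays, a difference that was not called. Structural proteasome genes leaned the same way. Of 16 structural subunits and assembly factors, 15 were higher in KO after LPS, against 48.3% of all genes, with 0 called. At an unadjusted p under 0.05 were 7 of the 16, against 2267 of 19935 genes. After saline 15 of the 16 were also higher in KO, against 48.9%, with 0 called. Of the 7 constitutive catalytic subunits and other activators, 4 were higher in KO after LPS, Psmb5 and Psmb6 among them. The Psmb8 to Psmb5 ratio averaged -0.05 ± 0.12 in KO LPS arrays and 0.21 ± 0.12 in WT LPS arrays (SD, n = 7 each). It was lower in KO after saline too, at -0.26 ± 0.08 against -0.03 ± 0.11 in WT (SD, n = 4 each). These genotype differences of the ratio were not tested.

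The activator subunits gave no call. Psme1 differed by -0.04 in KO and -0.0077 in WT, with 95% intervals of -0.15 to 0.07 and -0.12 to 0.10, which hold differences of either sign. Psme2 differed by 0.16 ± 0.11 in KO and 0.14 ± 0.11 in WT (SE), with intervals of -0.07 to 0.39 and -0.09 to 0.37. Its WT LPS arrays ran from -0.38 to 0.42. Its pooled SD within groups was 0.194, where the median gene had 0.102.

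Tap1, the gene with the highest change among the members, rose 1.53-fold in KO and 1.52-fold in WT. The KO LPS arrays had a lowest value of -0.08, a median of 0.09 and a highest of 0.15, and the KO saline arrays were at -0.55, -0.70, -0.49 and -0.50. The WT LPS arrays had -0.04, 0.16 and 0.22 as lowest, median and highest, and the WT saline arrays were at -0.69, -0.41, -0.45 and -0.39. After LPS every array of either genotype lay above every saline array. The difference was 0.61 ± 0.062 in KO (SE; limma adjusted p = 4.42e-07) and 0.60 ± 0.062 in WT (limma adjusted p = 5.00e-07). Counted from the most positive difference, it stood 86th in KO and 102nd in WT.

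Tap2, the partner of Tap1 in the transporter, had -0.01, 0.09 and 0.19 as lowest, median and highest value in KO LPS arrays. The KO saline arrays were at -0.30, -0.25, -0.20 and -0.26. In WT LPS arrays these were -0.17, 0.03 and 0.16, and the WT saline arrays were at -0.19, -0.29, -0.26 and -0.19. The groups did not overlap in either genotype, though the gap in WT was narrow. The difference was 0.34 ± 0.052 in KO (SE; limma adjusted p = 0.000208) and 0.26 ± 0.052 in WT (limma adjusted p = 0.00392). In arrays 1 to 11, with 1 KO saline array, the KO difference of 0.39 was not called (adjusted p = 0.0973).

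**Figure D2:**
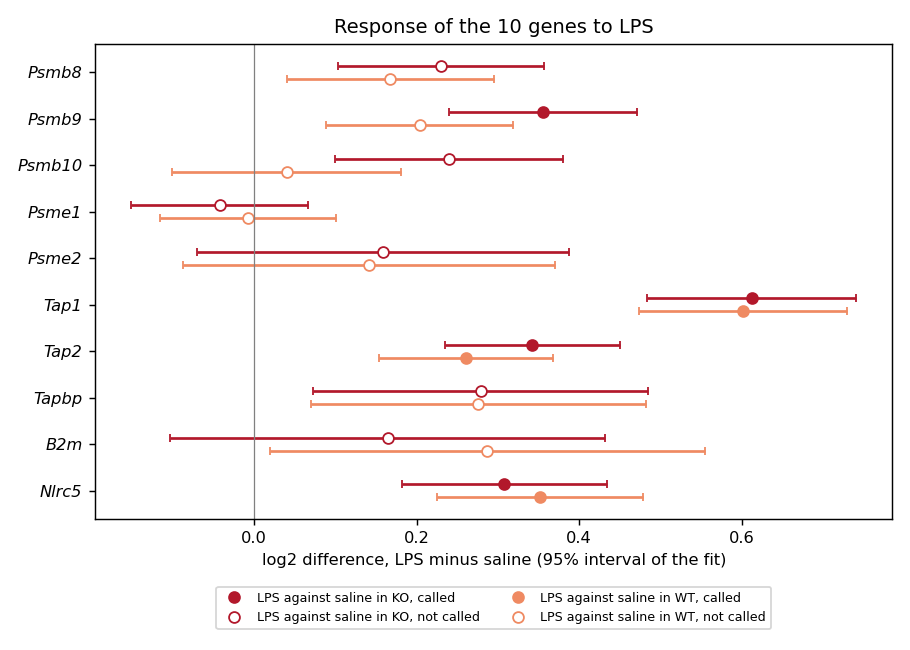
Points are LPS minus saline differences from limma and bars their 95% intervals, KO above WT in each row. Filled points were called: Psmb9 in KO, and Tap1, Tap2 and Nlrc5 in both genotypes.

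Tapbp was not called without a term for the array block. Its LPS difference was 0.28 ± 0.10 in KO (SE; limma adjusted p = 0.389) and 0.28 ± 0.10 in WT (limma adjusted p = 0.346). It was the 1 member among the 10 that differed between the blocks, against 21.5% of all genes. Tapbp was lower by 0.29 ± 0.048 in the later arrays (limma adjusted p = 0.000193). With the block as a term, the LPS difference was 0.27 in KO (adjusted p = 0.0201) and 0.29 in WT (adjusted p = 0.00844), both called.

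B2m had the largest spread of the members, with a pooled SD of 0.229. The KO LPS arrays ran from -0.30 to 0.34, with a median of 0.04, and the KO saline arrays were at -0.09, -0.35, 0.30 and -0.39. The WT LPS arrays ran from -0.30 to 0.37, with a median of 0.14, and the WT saline arrays were at -0.21, -0.05, -0.40 and -0.03. The difference was 0.16 ± 0.13 in KO (SE; limma adjusted p = 0.99977) and 0.29 ± 0.13 in WT (limma adjusted p = 0.674). The 95% interval in WT, 0.02 to 0.55, holds a change as large as that of Tap2.

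Nlrc5 rose in both genotypes. Averaged over its 19 probe sets, the KO LPS arrays had -0.13, -0.02 and 0.24 as lowest, median and highest value, and the KO saline arrays were at -0.33, -0.28, -0.35 and -0.17. The WT LPS arrays had 0.08, 0.16 and 0.20, and the WT saline arrays were at -0.31, -0.20, -0.08 and -0.24. No LPS array lay within the range of the saline arrays of its genotype. The KO LPS arrays spread more (SD 0.139) than the WT LPS arrays (SD 0.044), and lay partly apart by array number. They were at 0.11 and 0.24 in arrays 1 to 11, and ran from -0.13 to 0.13 in arrays 12 to 22. The difference was 0.31 ± 0.061 in KO (SE; limma adjusted p = 0.00494) and 0.35 ± 0.061 in WT (limma adjusted p = 0.000831). The KO call was lost in a fit of the KO groups alone (adjusted p = 0.0657) and in arrays 12 to 22, at 0.23 (adjusted p = 0.249).

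The probe sets of Nlrc5 differed among themselves. In KO, 17 of the 19 were higher after LPS and 9 were called. In WT 18 were higher and 10 were called, with 8 called in both. Here limma was fitted to the 21780 probe sets with 1 symbol, and the p-values were adjusted over those. The share of all probe sets called was not counted. The 19 probe sets read 1 gene on the same arrays, so they are not independent tests. The differences ran from -0.03 to 1.04 in KO, with a median of 0.31, and from -0.04 to 1.03 in WT, with a median of 0.34. The plot of the probe sets gives each one's value in both genotypes.

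**Figure D3:**
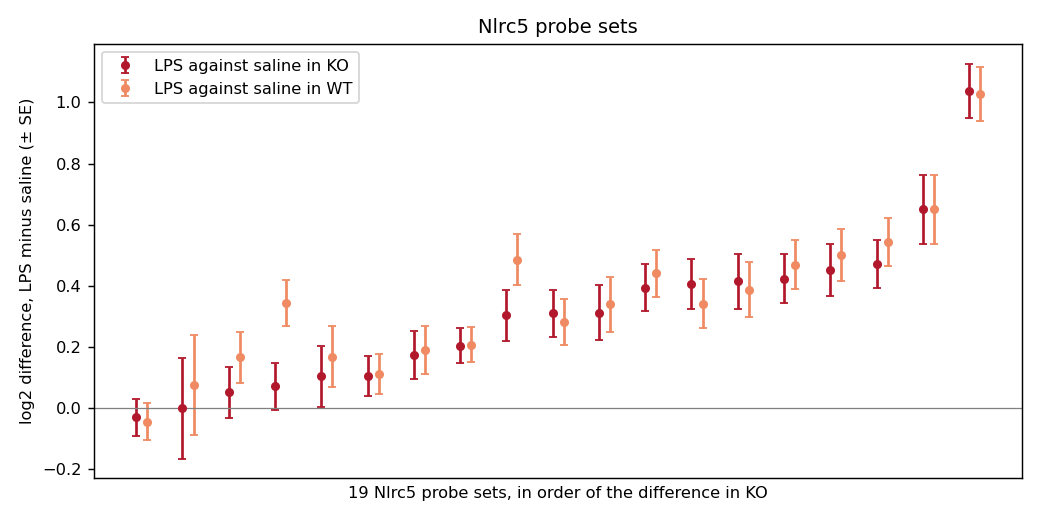
Each pair of points is a probe set of Nlrc5, in order of its LPS minus saline difference in KO; bars are the SE of the fit. KO values run from -0.03 to 1.04 and WT values from -0.04 to 1.03.

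In arrays 12 to 22, which hold 1 WT saline array and so take their spread from the other groups, no member was called in the WT LPS effect. Tap1 stood at 0.45 (limma adjusted p = 0.322), Tap2 at 0.12 (0.933) and Nlrc5 at 0.32 (0.525). In arrays 1 to 11, 3 members were called in WT.

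No member was called between the genotypes. After LPS, 0 of the 10 were called between KO and WT, against 0.0401% of all genes; 2 had an unadjusted p under 0.05, Psmb10 and Nlrc5, against 2267 of all genes. Psmb10 was higher in KO by 0.19 ± 0.058 (SE; 95% interval 0.07 to 0.31; limma adjusted p = 0.313). That difference was 0.15 with the block as a term (adjusted p = 0.897), 0.02 in arrays 1 to 11 and 0.27 in arrays 12 to 22, and with array weights it was called, at 0.21 (adjusted p = 0.0386). Nlrc5 was lower in KO by a difference of -0.12 ± 0.052 (interval -0.23 to -0.01; limma adjusted p = 0.402). In arrays 1 to 11, Nlrc5 averaged 0.18 in KO LPS and 0.17 in WT LPS arrays. In arrays 12 to 22 these means were -0.04 and 0.09. The other 8 members lay between -0.11 and 0.06. After saline, 0 of 10 were called, against 0.00502% of all genes, and 0 had an unadjusted p under 0.05. The differences ran from -0.12 for Psmb9 to 0.04 for B2m.

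The interaction, which asks whether the LPS effect differs between KO and WT, called 0 of the 10 and 0% of all genes with limma, with 1 member, Psmb10, at an unadjusted p under 0.05, against 327 of all genes. Without moderation of the variances it also called 0 genes. Psmb10 had an interaction of 0.20 ± 0.096 (SE; 95% interval 0.0010 to 0.40) and Psmb9 one of 0.15 ± 0.079 (interval -0.01 to 0.31). The interval for Tap1 was -0.17 to 0.19 and that for Nlrc5 was -0.22 to 0.13. So the call of Psmb9 in KO and not in WT is not shown to differ between the genotypes.

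Related genes were counted by lists. Of all 19935 genes, 1.08% were called higher after LPS in KO and 1.42% in WT. An unadjusted p under 0.05 was found for 1164 of all genes in KO and 1279 in WT. Of 8 MHC class I heavy chain genes measured, 1 was called in each genotype, H2-Q4, with 2 at an unadjusted p under 0.05 in each. The 8 do not include H2-K1 and H2-D1, which were not used here. H2-Q4 rose by 0.88 ± 0.11 in KO (SE; limma adjusted p = 1.46e-05) and 1.11 ± 0.11 in WT (limma adjusted p = 2.86e-07). It belongs to a family of near-identical genes, whose probes can read one another, so its value is uncertain. In arrays 12 to 22, with 1 WT saline array, its WT difference of 1.08 was not called (adjusted p = 0.0637). Of 10 genes for peptide trimming and loading partners, 0 were called in KO and 0 in WT by limma, with 0 and 1 at an unadjusted p under 0.05. The 7 constitutive catalytic subunits and other activators, the 16 structural subunits and assembly factors and the 10 genes of MHC class II processing likewise had no call for LPS, with 0 at an unadjusted p under 0.05 in both genotypes, except 1 class II gene in WT. Ciita, the class II regulator related to Nlrc5, differed by 0.05 in KO and 0.0042 in WT.

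Of 14 regulators of these genes, 2 were called higher in KO, against 1.08% of all genes, and 4 in WT, against 1.42%, with none lower. At an unadjusted p under 0.05 were 6 in KO and 5 in WT. Irf1, an interferon-induced activator of Tap1 and Psmb9, rose by 0.38 ± 0.077 in KO (SE; limma adjusted p = 0.00684) and 0.34 ± 0.077 in WT (limma adjusted p = 0.0153). Stat2, which carries the type I interferon signal, rose by 0.38 in KO and 0.43 in WT. Irf9, its partner, rose by 0.33 in WT (limma adjusted p = 0.00579) and stood at 0.23 in KO (limma adjusted p = 0.162), where it was called without KO LPS replicate 4 (0.26; adjusted p = 0.0427). Stat3, which carries the IL-6 signal, rose by 0.28 in WT (limma adjusted p = 0.0102) and stood at 0.15 in KO (limma adjusted p = 0.648), and the interaction was not called for it. The Irf1 call in WT was lost without WT saline replicate 1 (0.31; adjusted p = 0.0905) and without WT saline replicate 2 (0.34; adjusted p = 0.0563). Without the 4 arrays with pituitary or choroid plexus markers, Irf1 was not called in KO (adjusted p = 0.0802) or in WT (0.172). Within arrays 12 to 22 none of the 4 was called in WT: Irf1 stood at 0.17 (adjusted p = 0.936), Stat2 at 0.49 (0.186), Irf9 at 0.32 (0.642) and Stat3 at 0.23 (0.726). In KO, Stat2 was not called within arrays 1 to 11, at 0.33 (adjusted p = 0.235), nor was Irf1 there, at 0.49 (0.0662), or within arrays 12 to 22, at 0.33 (0.220). The Stat3 call was lost without WT saline replicate 2 (0.26; adjusted p = 0.0661). Of 10 interferons, receptors and kinases, 0 were called by limma, with 0 in KO and 1 in WT at an unadjusted p under 0.05. Ifng, the type II interferon, stood at -0.02 in KO and 0.06 in WT. The plot of the lists sets these beside the members.

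**Figure D4:**
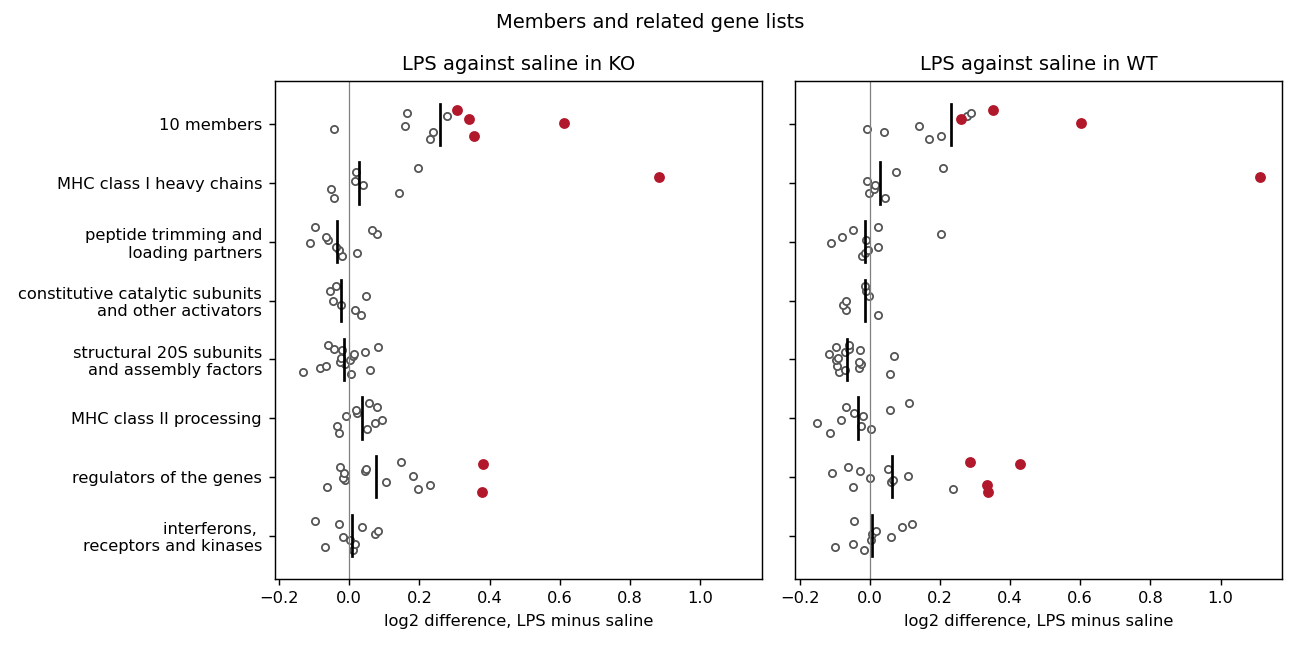
Each point is a gene, at its LPS minus saline log2 difference in KO (left) and WT (right), and filled points were called. Bars are list medians: 0.259 and 0.232 for the members, and between -0.06 and 0.08 for the other lists.

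Among markers of other cells in the tissue, most of those of endothelium were lower after LPS. Of 8 endothelial markers, 6 were called lower after LPS in KO, against 0.256% of all genes, and 7 in WT, against 0.376%. Cdh5, an adhesion protein of endothelial junctions, stood the other way, at 0.13 in KO (limma adjusted p = 0.99977) and 0.31 in WT (limma adjusted p = 0.147), neither called. Their mean over the list ran from -0.12 to 0.15 in KO LPS arrays and from -0.24 to -0.14 in WT LPS arrays, against 0.35 to 0.53 in KO saline arrays and 0.28 to 0.47 in WT saline arrays. Of 7 microglial markers, 0 were called in KO and 1 was called lower in WT, Cx3cr1 at -0.46. At an unadjusted p under 0.05 were 1 in KO and 4 in WT, and the list medians were -0.0066 and -0.15. Between the genotypes after LPS, all 7 were higher in KO, with 0 called. Of 11 T and NK cell, 3 B cell and 7 neutrophil and monocyte markers, 0 were called in either genotype by limma, with 1, 0 and 0 at an unadjusted p under 0.05 in KO and likewise in WT. Of 5 astrocyte, 4 oligodendrocyte, 5 neuronal and 5 hypothalamic neuron markers, 0 were called by limma, with 0, 1, 0 and 1 at an unadjusted p under 0.05 in KO and 0, 1, 0 and 0 in WT. The part of any of these cells in the members' rise was not tested.

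The members' mean over the 22 arrays was followed most closely by Errfi1 (Pearson r = 0.974), Icam1 (0.973), Nfkbia (0.966), Rnf213 (0.965) and Trim25 (0.961). Over deviations from the group means, the highest were Ccl19 (0.914), Errfi1 (0.909), Gadd45b (0.891), Cyp1b1 (0.891) and Ifitm2 (0.882). The arrays share groups, blocks and tissue makeup, so these are descriptions. Between members, the deviations gave 45 pairs with a median r of 0.22, from -0.49 to 0.79, and 33 were above 0. Psmb8 with Nlrc5 was the highest pair. Pairs of other genes were not examined, so these values have no reference and are a description too.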

How the data were processed

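The authors deposited log2 values for 28815 probe sets on 22 Affymetrix arrays; RMA, which corrects background, quantile-normalizes and summarises probes, is named per the submitters' processing notes. No probe set had a median further than 7.02e-07 from 0, so the authors had centred the values. The log base is not stated and was taken as 2, the usual output of RMA. The authors' genome build is not given in the sources used here. Array medians ran from -0.01 to 0.03; arrays have no depth, and their number limits the precision.

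Probe sets with 1 symbol (21780; 21689 matched by gene ID to RefSeq GRCm38.p6) were averaged per gene, giving 19935 genes; 1605 with several symbols and 5430 with none were left out. limma 3.58.1 in R 4.3.3 fitted 4 group means over the 22 arrays, with default empirical Bayes, 5 contrasts, two-sided p-values and the Benjamini-Hochberg adjustment for all genes. Groups came from the labels; replicates were numbered in accession order and not paired. Ratios used SciPy 1.17.1. On data simulated for the WT LPS contrast (19935 genes), 50 genes were planted at each log2 change of 0.3, 0.6, 1 and 2. Of these, 42, 49, 49 and 50 were recovered, with 8 false calls. The simulated noise was drawn separately for each gene and array, with no shared block effect or tissue carry-over. Recovery in the real arrays may therefore be lower. Named were all 10 members, up to 4 called genes of each list, a few fixed regulators and subunits, and the 5 genes most like the members' mean by each measure. H2-K1 and H2-D1, also in the rule, were not used here. Members and lists were chosen with earlier results of these data known. Alternatives are given in the closing section.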

Additional observations from a re-analysis of the deposited data

Results flagged for a closer look

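Psme1 in WT LPS replicate 7 lay at -0.20, far below the other 6 WT LPS arrays. Its gap to the nearest array was 0.674 of the group's range. It was 1 of 40 sets of a member and a group examined, and chance flags about 1 in 20. Psme1 was called in no contrast.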

How the results depend on the processing

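Each result was recomputed under 33 alternatives, 11 settings and the omission of each of 22 arrays, and the ratios, added after the values were seen, without each array. Of the members' values, 1628 kept their side of the threshold, 16 passed it and 6 fell below it; for the named pathway genes these counts were 1788, 5 and 22. The member calls ranged from 3 to 6 in KO and 0 to 4 in WT; the count was 0 for the WT effect in arrays 12 to 22, and 1 between KO and WT after LPS with array weights. Single Nlrc5 probe sets gave -0.00077 and -0.0296 in KO and -0.0438 in WT, against the positive mean. The cause was not tested. Genes called for LPS in KO were 145 in arrays 1 to 11 and 166 in arrays 12 to 22, against 267 in all arrays; in WT 45 in arrays 12 to 22, against 359. These within-block fits hold fewer arrays, with 1 saline array in KO (1 to 11) and WT (12 to 22), assumed to vary like the other groups. Between KO and WT after LPS, 8 genes were called; the count was 1 with the contrast's groups only, 2 with the block, 0 in arrays 1 to 11 and 0 in arrays 12 to 22, 1 without the 4 carry-over arrays, 1 without moderation, 614 with array weights, 16 with quantile normalization, and 2 to 47 without one array (47 without KO LPS replicate 1, 2 without KO LPS replicate 6). After saline, 1 gene was called, and 0 with the contrast's groups only, in either block or with quantile normalization, and 0 to 2 without one array. The ratio of Psmb10 to Psmb7 in WT ran from 0.081 to 0.138 without one array. No paired analysis was possible because the labels give the groups no shared replicate numbers.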
